A study of Mus musculus with 8 samples.

Results

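Interferon-stimulated genes are the genes that a cell turns on when it senses an interferon, and 49 of them were followed in the livers of female mice on a Western Diet (WD). The members were picked by symbol from a fixed list of sensors, transcription factors, antiviral effectors, GTPases and antigen-processing genes, limited to symbols that the table of expression values holds. The rule uses no measured value, but the list was drawn up with earlier results of these data known. All 49 were among the 14312 mouse genes that were tested. RNA was sequenced from 8 livers, 1 library per mouse, with 4 mice given an empty vehicle pellet (Con-Veh) and 4 given a pellet of dihydrotestosterone (DHT), an androgen that cannot be turned into estrogen (Con-DHT). The comparison asked how androgen excess alters the liver when female mice eat a diet rich in fat, fructose and cholesterol.

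In the Con-DHT group the silastic pellet held 10 mm of DHT, and the pellets of both groups were implanted when the females were 7 weeks old. WD feeding and treatment ran for 8.5 weeks, and the mice were fasted overnight before euthanasia. The labels call the genotype of both groups WT. Values are normalized counts, which are the reads of a gene over the size factor of its library, and reads on mouse genes ran from 13123962 to 17815944 per library. The hepatocyte markers Alb, Apoa1, Ttr, Serpina1b and Cps1 summed to 804241 to 1613390 in Con-Veh and 842521 to 1019220 in Con-DHT, and 0 of the 5 passed the test between the groups.

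Interferons act through receptors on the cell surface. The type I receptor, made of IFNAR1 and IFNAR2, signals through the kinases JAK1 and TYK2 to a complex of STAT2 and IRF9 that settles on the interferon-stimulated response element (ISRE) of their target genes. Interferon gamma uses IFNGR1 and IFNGR2 and acts through the gamma-activated site (GAS). The induced genes sense foreign nucleic acid, degrade or block viral RNA, mark intracellular vacuoles for destruction and load peptides on MHC class I. In liver, hepatocytes as well as Kupffer cells, endothelium and other immune cells express them.

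The ISRE core is visible in the promoters of several of the genes whose levels fell. Promoter windows, from 250 bases before to 50 bases after a transcription start, were taken from RefSeq (mouse, GRCm38.p6), where 36 of the 49 members have an entry with 41 windows in all. The core was searched as GAAANNGAA on both strands, so that matches can overlap each other. The 7 stretches below belong to members that passed the test and hold a match upstream of the start, and Isg15, a classical target, is shown beside them although it did not pass. Each is written along the strand of its gene with up to 30 bases on each side, and capitals mark the matches, shown as the reverse complement where the core lies on the other strand.
Stat2, chr10:128270248-128270315, plus strand: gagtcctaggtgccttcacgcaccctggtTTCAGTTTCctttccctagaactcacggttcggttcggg
Oas3, chr5:120777690-120777758, minus strand: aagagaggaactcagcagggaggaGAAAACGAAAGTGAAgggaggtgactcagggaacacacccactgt
Isg15, chr4:156200846-156200914, minus strand: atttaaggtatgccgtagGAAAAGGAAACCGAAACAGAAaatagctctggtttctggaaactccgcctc
Bst2, chr8:71537558-71537626, minus strand: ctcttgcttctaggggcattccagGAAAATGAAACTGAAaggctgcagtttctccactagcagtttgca
Trim30a, chr7:104465194-104465258, minus strand: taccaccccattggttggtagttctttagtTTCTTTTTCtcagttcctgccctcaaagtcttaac
Igtp, chr11:58199492-58199555, plus strand: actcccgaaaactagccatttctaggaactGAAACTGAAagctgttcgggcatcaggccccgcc
Irgm1, chr11:48871421-48871474, minus strand: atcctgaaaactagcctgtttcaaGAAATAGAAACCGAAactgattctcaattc
Gbp3, chr3:142559976-142560043, plus strand: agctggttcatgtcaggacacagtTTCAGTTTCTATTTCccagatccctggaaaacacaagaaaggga

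The core was found in 22 of the 41 windows (53.7%), against 2812 of the 32851 windows of the whole RefSeq set (8.56%). Counted by gene, it was found in 21 of the 36 members with an entry (58.3%), against 2638 of the 27025 genes of that set (9.76%). Among the members that passed the test, 9 have an entry and 8 of these hold the core. Irf7 is the member without it, and the match of Ifi44 does not lie upstream of the start. The GAS, searched as TTCNNNGAA, was found in 9 of the 36 members and in 2 of the 9 that passed. It was found in 9.55% of the 27025 genes of the whole set. The stretches of Ifit3 and Ifit3b that hold the core were identical. No window was taken for Oas2, Zbp1, Usp18, Iigp1, Mx1, Mx2, Dhx58, Gbp6, Ifi27, Parp9, Parp14, Rtp4 and Tap2. A match describes letters in a window only.

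Interferon-stimulated genes were lower in Con-DHT livers wherever they passed the test. With adjusted p-values up to 0.05 taken as passing (limma on log2(value + 1), Benjamini-Hochberg over all tested genes), 10 of the 49 fell and 0 rose. Over all 14312 tested genes, 7.21% passed in either direction and 2.61% were lower, while the members' share of lower genes was 20.4%. The log2 fold change (log2FC, the log2 of Con-DHT over Con-Veh) was below 0 in 46 of the 49 members, against 51.5% of all tested genes. Its median was -0.41 over the members and -0.0081 over all tested genes. In 12 members every Con-DHT liver lay below every Con-Veh liver, which held for 6.62% of all tested genes. Genes of a liver are not independent of each other, so these counts describe the list.

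**Figure D1:**
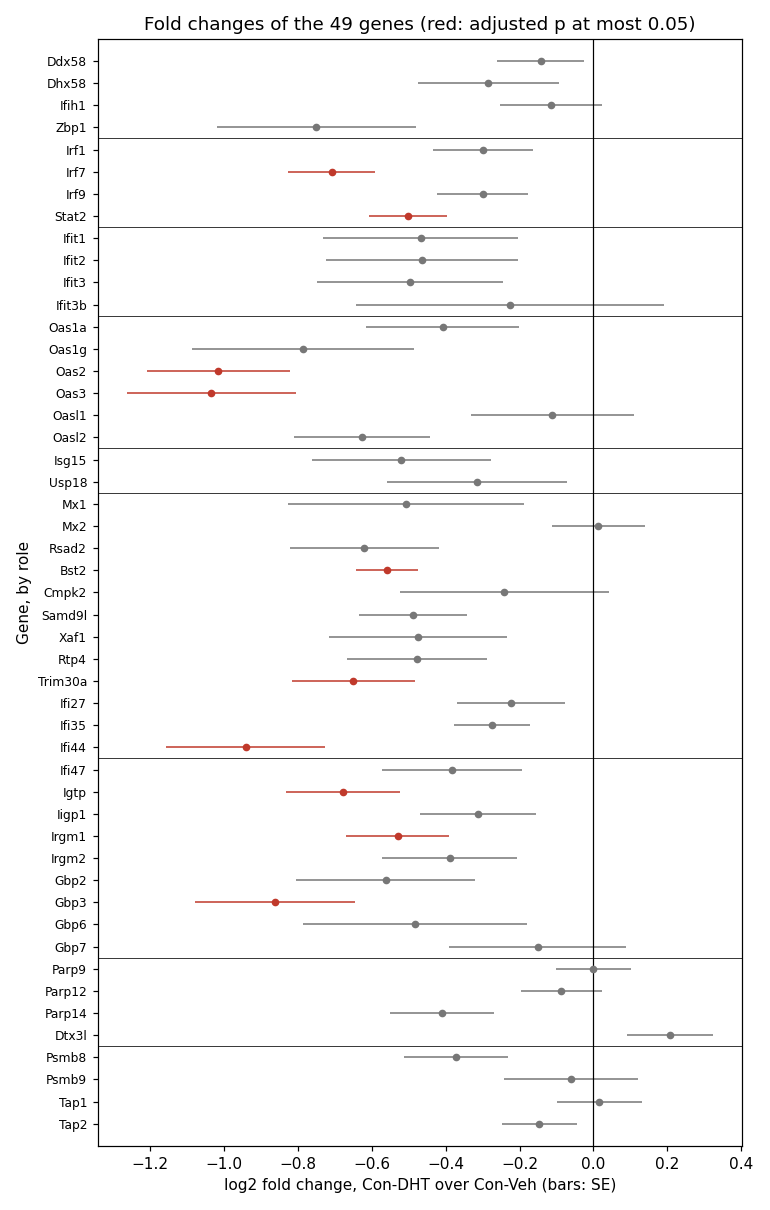
Log2FC of Con-DHT over Con-Veh (x axis) for each of the 49 genes (y axis, grouped by role), with bars for the standard error and red for genes that passed the test. Points lie left of 0 for 46 genes, the red points number 10, and Oas3 lies farthest left at -1.03.

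Among the transcription factors that build the response, Irf7 and Stat2 fell, and Irf1 and Irf9 did not pass. Irf7 (ENSMUSG00000025498) encodes the factor that amplifies production of type I interferon. Its normalized counts were 663, 853, 649 and 818 in the Con-Veh livers and 455, 530.3, 420.5 and 413 in the Con-DHT livers. The groups did not overlap, and Irf7 fell from 746 ± 105 to 455 ± 53.6 (SD, n = 4), a log2FC of -0.71 (SE 0.117, adjusted p = 0.0060). Stat2 (ENSMUSG00000040033), a part of the factor that binds the ISRE, was at 1553, 1463, 1174 and 1579 in Con-Veh. In Con-DHT it was at 1005, 899, 1048 and 1106, below all of the Con-Veh livers. The log2FC of Stat2 was -0.50 (SE 0.106, adjusted p = 0.019). Irf9, the DNA-binding part of the same complex, ran from 663 to 999 in Con-Veh and from 606 to 747 in Con-DHT, with ranges that overlapped and an adjusted p of 0.17. Irf1, which carries much of the answer to interferon gamma, gave a log2FC of -0.30 with an adjusted p of 0.22.

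The oligoadenylate synthetases held the largest decreases. These enzymes answer double-stranded RNA by making oligoadenylates, which activate the ribonuclease RNase L. Oas3 (ENSMUSG00000032661) was at 71.5, 71.4, 57.9 and 94.0 in Con-Veh and at 39.2, 47.4, 24.5 and 32.6 in Con-DHT. Its lowest Con-Veh liver was above its highest Con-DHT liver, and its log2FC was -1.03 (SE 0.228, adjusted p = 0.023). Oas2 (ENSMUSG00000032690) was at 148, 233, 154 and 228 in Con-Veh and at 104, 112, 76.5 and 79.4 in Con-DHT. Here too the groups were apart, with a log2FC of -1.02 (SE 0.193, adjusted p = 0.012) and a mean that was 51.2% lower. Oasl2, an OAS-like protein, was at 91.2, 119, 111 and 176 in Con-Veh and at 76.5, 84.2, 73.5 and 77.2 in Con-DHT. Its groups were apart, but it did not pass the test (-0.63, SE 0.185, adjusted p = 0.072). Oasl1, another OAS-like protein, which represses translation of IRF7, was at 158, 181, 113 and 224 in Con-Veh and at 164, 205, 127 and 125 in Con-DHT. These ranges overlapped widely (-0.11, SE 0.222, adjusted p = 0.81). Oas1a and Oas1g gave log2FC values of -0.41 and -0.79 and did not pass. They share 32.4% and 24.1% of their 150-base stretches with each other, and reads from shared stretches map to more than a single place, so their separate levels are uncertain.

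The IFIT genes, the ISG15 pair and the RNA sensors had lower means in Con-DHT but did not pass. IFIT proteins bind viral RNA and block its translation, and 0 of the 4 passed, with log2FC values from -0.50 to -0.23. Ifit3, the farthest from 0, was at 136, 175, 181 and 239 in Con-Veh and at 125, 211, 91.9 and 107 in Con-DHT. Con-DHT replicate 2 lay above the Con-Veh replicates 1, 2 and 3, and the adjusted p was 0.27. Ifit3 and Ifit3b share 18.55% and 15.99% of their 150-base stretches with each other, so their separate levels are uncertain. Isg15, the ubiquitin-like protein that is joined to other proteins, ran from 73.9 to 137 in Con-Veh and from 54.1 to 104 in Con-DHT. Usp18, the protease that removes ISG15 and also restrains the type I receptor, was at 148, 207, 139 and 289 in Con-Veh. It was at 132, 214, 144 and 125 in Con-DHT (-0.32, SE 0.243, adjusted p = 0.48), and again Con-DHT replicate 2 stood high. Of the sensors, Zbp1, which recognizes Z-form nucleic acid and starts necroptosis, was at 86.8, 199.8, 89.8 and 108 in Con-Veh. In Con-DHT it was at 80.4, 84.2, 58.2 and 52.2. Its groups were apart, but Con-Veh replicate 2 was far above the others and the adjusted p was 0.13 (-0.75, SE 0.270). Ddx58, which encodes the RNA sensor RIG-I, was at 342, 444, 407 and 509 in Con-Veh and at 390.5, 410.3, 375 and 353 in Con-DHT. The ranges overlapped, and the log2FC of -0.14 did not pass (adjusted p = 0.52). Ifih1 and Dhx58, its relatives, gave -0.12 and -0.28 and did not pass.

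Of the other antiviral effectors, Bst2, Ifi44 and Trim30a fell. Bst2 (ENSMUSG00000046718) encodes tetherin, which holds budding virus at the cell surface, and was the most abundant member per kilobase of exon, with 2951 normalized counts per kb in Con-Veh. It was at 2372, 3054, 2669 and 2564 in Con-Veh and at 1699, 1857, 1828 and 1822 in Con-DHT. The Con-DHT livers were close to each other and far below the Con-Veh livers, and Bst2 had the lowest adjusted p of the members (-0.56, SE 0.083, adjusted p = 0.0037). Ifi44 (ENSMUSG00000028037), whose protein limits viral replication by a route that is not settled, was at 92.3, 97.5, 97.8 and 144 in Con-Veh. In Con-DHT it was at 75.5, 56.1, 54.1 and 39.1, a log2FC of -0.94 (SE 0.216, adjusted p = 0.028). Trim30a (ENSMUSG00000030921), a TRIM protein known to dampen inflammatory signalling, was at 125, 137, 122 and 178 in Con-Veh and at 97.1, 90.0, 101 and 68.5 in Con-DHT. The groups were apart, and it passed narrowly (-0.65, SE 0.167, adjusted p = 0.043). Mx2, a dynamin-like GTPase that blocks viruses, was at 102, 108, 92.8 and 124 in Con-Veh and at 118, 107, 107 and 97.8 in Con-DHT (0.013, SE 0.126, adjusted p = 0.97). Its relative Mx1 was low in both groups, from 24.2 to 57.4 in Con-Veh and from 20.7 to 40.6 in Con-DHT. Rsad2, which encodes viperin and makes a chain-terminating nucleotide, and Samd9l, a translation inhibitor, came near the threshold without passing, with log2FC values of -0.62 and -0.49 and adjusted p-values of 0.095 and 0.077. Cmpk2, Xaf1, Rtp4, Ifi27 and Ifi35 had log2FC values between -0.48 and -0.22 and did not pass.

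**Figure D2:**
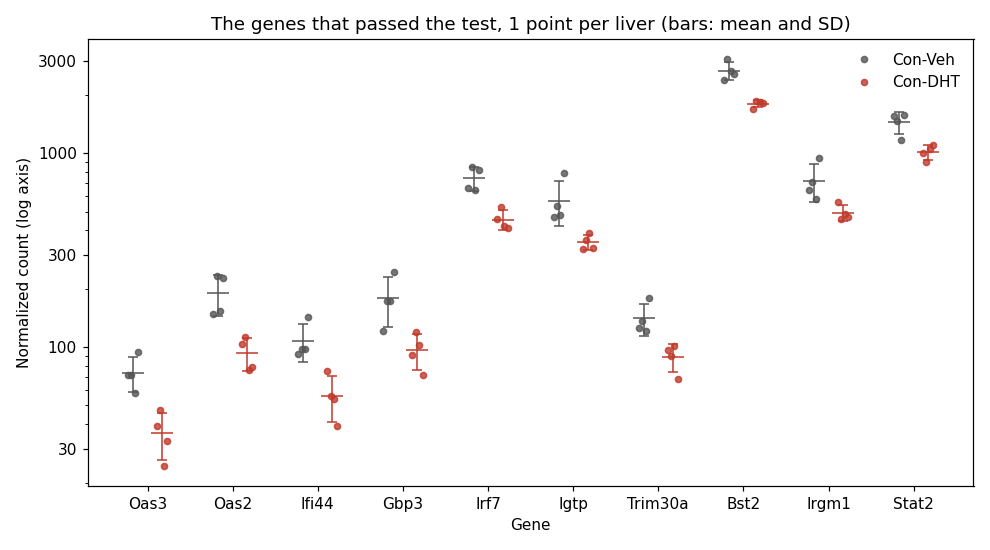
Normalized counts (y axis, log scale) of the 10 genes that passed the test (x axis), with 1 point per liver, horizontal marks for the mean and bars for the SD, grey for Con-Veh and red for Con-DHT. For each gene the 4 red points lie below the 4 grey points, and Bst2 is the highest pair of groups.

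The interferon-inducible GTPases sit on vacuoles that hold microbes, and 3 of the 9 fell. Igtp (ENSMUSG00000078853), an immunity-related GTPase, was at 471, 537, 478 and 788 in Con-Veh and at 322, 356, 389 and 324 in Con-DHT. Con-Veh replicate 4 was well above its group, and all Con-DHT livers were below all Con-Veh livers (-0.68, SE 0.155, adjusted p = 0.028). Irgm1 (ENSMUSG00000046879), a regulatory member of that family, was at 646, 712, 581 and 947 in Con-Veh and at 557, 457, 487 and 469.6 in Con-DHT. It was apart between the groups by a small margin and close to the threshold (-0.53, SE 0.139, adjusted p = 0.048). Gbp3 (ENSMUSG00000028268), a guanylate-binding protein, was at 121, 174, 174 and 245 in Con-Veh and at 91.2, 119, 103 and 71.7 in Con-DHT, with a log2FC of -0.86 (SE 0.217, adjusted p = 0.041). Iigp1, an effector GTPase with the highest mean count of this role, was at 2985, 3666, 3245 and 4129.7 in Con-Veh and at 3533, 3152, 2114 and 2618 in Con-DHT. The ranges overlapped, and it did not pass (-0.31, SE 0.158, adjusted p = 0.27). Irgm2, Ifi47, Gbp2, Gbp6 and Gbp7 gave log2FC values between -0.56 and -0.15 without passing. Gbp6 shares 59.1% of its 150-base stretches with Gbp10 and another gene model, so its level is uncertain.

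The PARP group and the antigen-processing group were nearest to 0, and 0 of their 8 members passed. Dtx3l encodes a ubiquitin ligase that works as a pair with PARP9. It was at 755, 878, 772 and 1057 in Con-Veh and at 965, 1113, 1022 and 874 in Con-DHT, the farthest of the members above 0 (0.21, SE 0.117, adjusted p = 0.33). Its ranges overlapped. Parp9 was at a mean of 799.6 ± 108 without DHT and of 795 ± 51.2 with it (SD, n = 4). Parp14 was at -0.41 (adjusted p = 0.11) and Parp12 at -0.09. Tap1, a subunit of the transporter that brings peptides to MHC class I, was at 465, 519, 442 and 557 in Con-Veh and at 513, 571, 411 and 516 in Con-DHT (0.016, SE 0.114, adjusted p = 0.95). Tap2, its partner, was at 542, 681, 508 and 547 in Con-Veh and at 528, 556, 479.7 and 484 in Con-DHT (-0.15, SE 0.101, adjusted p = 0.43). Neither differed beyond the spread between livers. The immunoproteasome subunits Psmb8 and Psmb9 gave -0.37 (adjusted p = 0.14) and -0.06 (adjusted p = 0.88).

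Per kilobase of exon, the order of the members in Con-Veh ran from Bst2 at 2951 over Ifi27 at 923 and Iigp1 at 602 down to Mx1 at 11.3 and Oas3 at 10.4 normalized counts per kb. The members that fell were spread over this order, with Bst2, Igtp, Stat2 and Irf7 among the 7 most abundant and Oas3 and Ifi44 among the 5 least abundant. Oas3 was at 5.08 per kb in Con-DHT. The decreases included abundant as well as scarce members.

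Within a group, the median spread of these genes between livers was wider than that of all tested genes. Each member's log2 values were centred on their mean over the 8 libraries and averaged over the 49 members, which gave -0.05, 0.31, 0.03 and 0.54 for Con-Veh replicates 1 to 4 and -0.16, 0.03, -0.34 and -0.35 for Con-DHT replicates 1 to 4. The means of the groups lay 0.41 apart, and the ranges overlapped slightly, since Con-DHT replicate 2 (0.028) was above Con-Veh replicate 1 (-0.047). Con-Veh replicate 4 was the highest Con-Veh liver for 38 of the 49 members, and Con-DHT replicate 2 was the highest Con-DHT liver for 34. Over all tested genes these livers were the highest of their group for 22.2% and 23.7%. The median SD within a group was 0.30 on the log2 scale for the members and 0.20 for all tested genes. The tested genes were not matched to the members for expression level. A wider spread than that of genes of like level is therefore not shown.

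**Figure D3:**
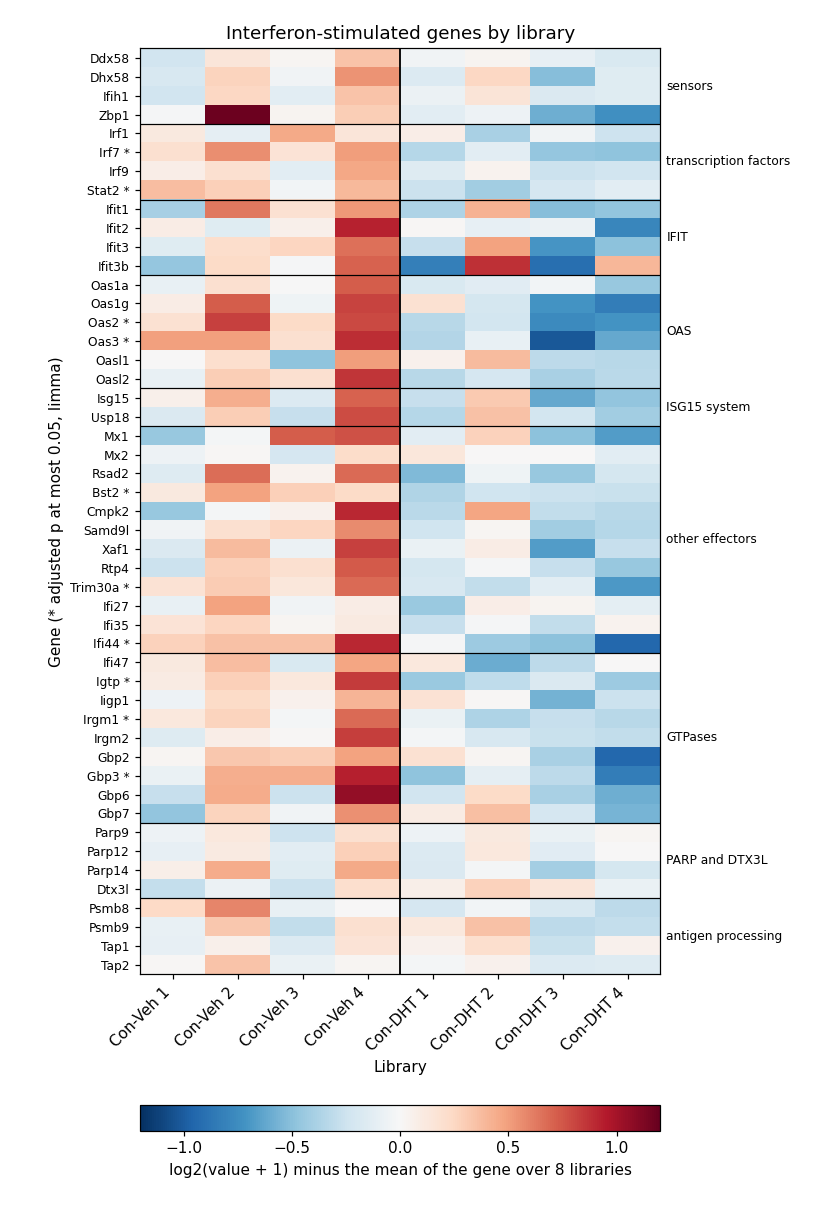
Log2(value + 1) minus the gene's mean over the 8 libraries (colour scale, red above and blue below) for the 49 genes (rows, grouped by role, with a star for genes that passed) in the 4 Con-Veh and 4 Con-DHT livers (columns). The column of Con-Veh replicate 4 is the reddest, being the highest of all 8 livers for 35 genes, and those of Con-DHT replicates 3 and 4 are the bluest, being the lowest of all for 17 and 16.

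The roles differed in how this spread lay. The mean of the IFIT genes was 0.71 in Con-Veh replicate 4 and 0.42 in Con-DHT replicate 2, higher than in Con-Veh replicates 1, 2 and 3, which were at -0.23, 0.23 and 0.12. The mean of the transcription factors, by contrast, ran from 0.11 to 0.37 in Con-Veh and from -0.27 to -0.17 in Con-DHT, with no overlap. The mean of the OAS genes was also apart, with 0.014 as the lowest Con-Veh value and -0.08 as the highest Con-DHT value. For the PARP group the ranges were -0.20 to 0.28 and -0.12 to 0.12. Whether the order of the roles differs beyond the spread between livers was not tested.

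**Figure D4:**
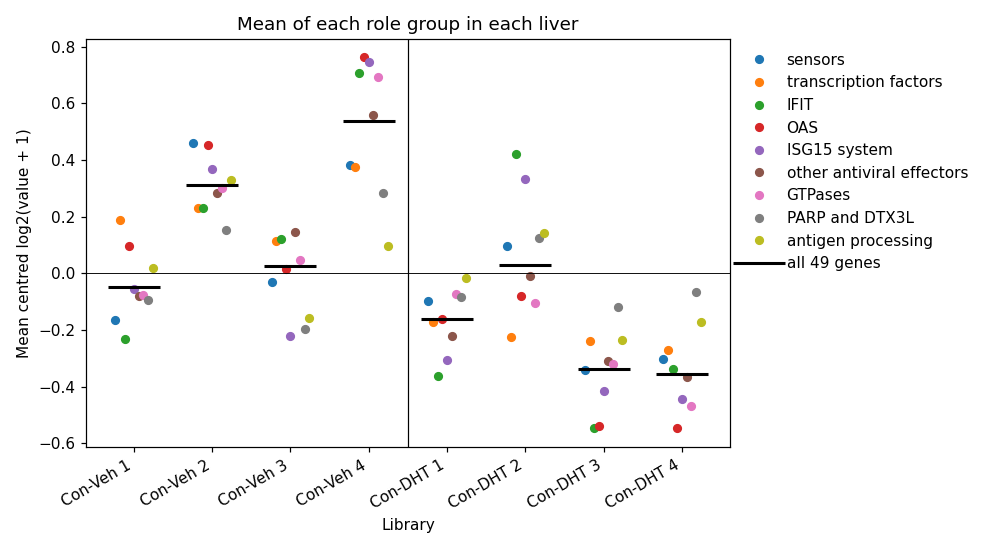
Mean of the centred log2 values of each role group (coloured points) and of all 49 genes (black bars) in each of the 8 livers (x axis). Con-Veh replicate 4 is the highest liver at 0.54 over all genes, and Con-DHT replicate 2 (0.03) lies above Con-Veh replicate 1 (-0.05).

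Which members passed depended on single libraries. When each library was left out in turn, between 3 and 12 members passed, all of them lower in Con-DHT. It was 12, 3, 9 and 4 without Con-Veh replicates 1 to 4 and 5, 5, 6 and 4 without Con-DHT replicates 1 to 4. Irf7, Oas2 and Bst2 passed in all 8 of these fits, Oas3 in 5, Stat2 and Igtp in 4, Ifi44 in 3, Gbp3 in 2, Irgm1 in 1 and Trim30a in 0. Without Con-Veh replicate 4, the liver with the highest levels, the members that passed were Irf7, Oas2, Bst2 and Igtp, and the median log2FC of the members was -0.29. That library also had the fewest reads on the spike-in RNA added before library preparation (305160, against 344722 to 533560 in the others). Its sum of the hepatocyte markers was the highest (1613390), and Alb made 1275380 of it. The lowest Con-Veh sum (804241) was that of Con-Veh replicate 2. The centred mean of the members in that liver, 0.31, was below that of Con-Veh replicate 4 alone. A link between the hepatocyte sum and the members was not tested. When the libraries were scaled by the spike-ins instead, 0 members passed (limma), 4 had an unadjusted p under 0.05, and the median log2FC values were -0.22 for the members and 0.19 for all tested genes. This scaling moves all genes of a library by the same factor, so it leaves the distance of the members from the other genes nearly as it was and does not test it. With the reads recovered from the values, edgeR called 10 members and DESeq2 13, all lower.

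Upstream of these genes, the receptors and kinases of the pathway did not pass. Of a longer list of 128 other interferon genes, drawn up with earlier results of these data known, 104 were in the table, of which 8 (7.69%) fell and 0 rose, beside 2.61% of all tested genes that were lower. In 92 of the 104 the log2FC was below 0, with a median of -0.29, while this held for 51.5% of all tested genes. The 9 interferon genes on that list (Ifna1, Ifna2, Ifna4, Ifnb1, Ifne, Ifng, Ifnk, Ifnl2 and Ifnl3) were not among the 14312 tested genes. The same held for Socs1, a feedback inhibitor of JAK kinases, so none of these could be compared. Ifnar1 and Ifnar2, the chains of the type I receptor, gave 0.14 (SE 0.097, adjusted p = 0.43) and -0.12 (SE 0.082, adjusted p = 0.41). Ifngr1 was at 295, 274, 286 and 291 in Con-Veh and at 233, 230.3, 251 and 267 in Con-DHT. It was apart between the groups but did not pass (-0.22, SE 0.083, adjusted p = 0.14), and Ifngr2 gave 0.13 (adjusted p = 0.48). The kinases Jak1 and Tyk2 gave 0.06 (adjusted p = 0.64) and -0.16 (adjusted p = 0.28).

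The 8 other pathway genes that fell were Ifi27l2b, Psme1, Ifi202b, Epsti1, Irf8, Ifi30, Ifi44l and Gbp8. Ifi27l2b, a relative of Ifi27, moved the most, from 201, 187, 142 and 162 in Con-Veh to 48.1, 85.2, 85.7 and 67.4 in Con-DHT, a log2FC of -1.29 (SE 0.197, adjusted p = 0.0044). It passed in all 8 fits that left out a library. Psme1, which encodes a subunit of the proteasome activator of the immunoproteasome, fell by a small amount with the groups apart, from 958 ± 46.0 to 782 ± 20.3 (SD, n = 4; -0.29, adjusted p = 0.023). Ifi202b, an inhibitor of a DNA sensor, fell from 62.9 ± 8.91 to 38.3 ± 3.5 (adjusted p = 0.030). Epsti1, Ifi44l and Gbp8, further interferon-induced genes, fell by 0.76, 0.75 and 0.67 on the log2 scale. Irf8, a factor of macrophages and dendritic cells, was at 192, 229, 214 and 198 in Con-Veh and at 136, 126, 172 and 96.7 in Con-DHT (-0.67, SE 0.161, adjusted p = 0.034). Ifi30, a thiol reductase of antigen-presenting cells, fell by 0.65 (SE 0.159, adjusted p = 0.035). All 8 kept the groups apart. Other than Ifi27l2b, these calls were held in at most 2 of the 8 fits that left out a library, and without Con-Veh replicate 2 the number was 1 of 104.

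Of the markers of resident macrophages, 4 of 8 fell in the same comparison, in which 2.61% of all tested genes were lower. The RNA came from whole liver, in which fewer cells of a type and less RNA per cell cannot be told apart. All 8 Kupffer cell and macrophage markers (Clec4f, Vsig4, Timd4, Cd5l, Marco, Adgre1, Cd68 and Csf1r) had log2FC values below 0, from -0.86 to -0.40, and Clec4f, Vsig4, Cd5l and Cd68 fell. Their summed level was 6513 to 8043 in Con-Veh and 4395 to 6014 in Con-DHT, with no overlap. Cd5l, a scavenger protein of Kupffer cells, fell from 2767 ± 368 to 1529 ± 280 (adjusted p = 0.0045), and Vsig4, their complement receptor, from 463 ± 18.3 to 315 ± 49.9 (adjusted p = 0.012). Adgre1 gave a log2FC of -0.42 and did not pass (adjusted p = 0.095). The paper reports that liver inflammation, assessed by staining for the protein of Adgre1, was not altered by DHT on WD. It does not say whether the stained livers were those sequenced. Of the 6 markers of sinusoidal endothelium, Stab2 and Lyve1 fell, and the sums were 3750 to 4128 in Con-Veh and 2918 to 3465 in Con-DHT. Clec4g and Oit3 gave log2FC values of -0.35 and -0.40 without passing. Ptprb (-0.04, adjusted p = 0.87) and Kdr (0.00026) were near 0, so the endothelial markers did not move together. In Con-Veh replicate 4 the Kupffer cell and macrophage sum was 7576, which is not the highest of its group, but the single markers differed. Clec4f (2580) and Timd4 (251) were higher there than in any other liver, while Marco (136) was the lowest of Con-Veh. Vsig4, Cd5l, Adgre1, Cd68 and Csf1r were neither the highest nor the lowest of Con-Veh in that liver. The part of these cells in the decrease of the interferon-stimulated genes was not tested.

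Few markers of other immune cells were listed. Of 9 T and NK cell markers, Gzma alone was in the table, at means of 12.9 ± 4.23 and 8.30 ± 4.10 (SD, n = 4), and 0 of 6 neutrophil markers were listed. Of 7 B and plasma cell markers, 4 were listed with sums of 189 to 263 in Con-Veh and 96.7 to 111 in Con-DHT, and Igha, the heavy chain of IgA, fell from 121 ± 34.1 to 30.5 ± 13.9 (adjusted p = 0.0047). The plasmacytoid dendritic cell list, with 4 of 5 in the table, holds Bst2 and Irf8, while Siglech, its defining marker, was at 10.2 ± 2.5 and 10.2 ± 6.36. The 5 stellate cell and 4 cholangiocyte markers did not pass.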

How the data were processed

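Gene expression was compared between 4 Con-DHT and 4 Con-Veh livers, grouped by the treatment label. The 49 members, their roles and all other lists were chosen with earlier results of these data known. According to the study's methods and the submitters' processing notes, the authors trimmed the reads with Trimmomatic, aligned them with STAR (GRCm39), used featureCounts for reads that map to a single place in exons and ran DESeq2. The values they deposited are a signal, gene counts over the size factor of the library, for 14371 features, of which 54 are spike-ins. Dividing each column by its smallest step gave whole reads for 100% of the values (within 0.01 reads), which edgeR 4.0.16 and DESeq2 1.42.0 used as alternatives.

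Limma 3.58.1 (R 4.3.3, eBayes with an intensity trend) was fitted to log2(value + 1) for 14312 mouse genes (mean value of 10 or more), with Benjamini-Hochberg adjustment over all of them and a threshold of 0.05. Fold changes of low genes are understated by the pseudocount of 1. Alternatives were pseudocounts of 0.1 and 5, a mean of 50 or more, no filter, no trend, quantile normalization, an equal total without the Mup genes, spike-in scaling, the replicate number as a block and leaving out each library. The rule for values in every library took members that passed, members whose groups were apart, the 3 highest and lowest fold changes and the most abundant member of each role. Other interferon genes were named when they passed, along with receptors and kinases. Some items are not reported here. Symbols (for 14287 genes), exon lengths and transcripts came from GENCODE M21 (GRCm38), so no gene positions of the deposited build are given. The planned comparison of protein sequences was not made here, and shared 150-base stretches of transcripts were counted instead. Reads that cannot be placed at a single position were left out of the counts, which can lower the values of copies that share such stretches. Libraries of a group differed beyond sampling noise (chi-square per degree of freedom of at least 19.1), so each counted as a replicate. On a single set of simulated counts, DESeq2 made a larger share of false calls than limma and edgeR. The changes put into that set were larger than those of any member, so it does not show how the tools find changes as small as theirs. SDs cover differences between mice and counting error.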

Additional observations from a re-analysis of the deposited data

Results flagged for a closer look

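In 5 of the 100 groups of 4 livers that were looked at (the 49 members and their mean score, in each group), a single liver stood apart from the other three of its group by Dixon's gap rule. Chance alone sets off this rule in about 5% of groups. Ifit1 was at 146 in Con-DHT replicate 2, against 76.5 to 84.4 in the rest of that group (gap 0.89 of the range). Cmpk2, a mitochondrial nucleotide kinase, was at 147 in the same liver, against 83.7 to 85.7 (gap 0.97). Ifi44 was at 144 in Con-Veh replicate 4, against 92.3 to 97.8 (gap 0.89). Ifit2 was at 123 in Con-Veh replicate 4, against 57.9 to 68.2 (gap 0.84), and at 37.0 in Con-DHT replicate 4, against 60.0 to 64.8. The 4 high values fall in the same 2 livers that were the highest of their group for most members. The adjusted p of Ifi44 without Con-Veh replicate 4 was 0.075.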

How the results depend on the processing

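The direction of the members' median held under all alternatives, from -0.50 without Con-Veh replicate 1 to -0.22 with spike-in scaling, and 0 members were higher in Con-DHT past the threshold in any of them. The number of members that passed, 10, was 6 without the intensity trend and 0 with spike-in scaling, and ranged from 3 to 12 when a library was left out. For the other pathway genes it was 8, and 4 with a mean of at least 50, 5 without the trend, 4 with an equal total without the Mup genes, 1 with spike-in scaling, 18 with DESeq2 and 1 to 6 when a library was left out. Over all genes, 1032 passed, against 648 with a mean of at least 50, 637 with spike-in scaling, 1569 with DESeq2 and 633 to 905 when a library was left out. Spike-in scaling turned small log2FC values to above 0 for Ddx58 (0.056), Oasl1 (0.086), Tap2 (0.051), Ifnar2 (0.075) and Tyk2 (0.042), and quantile normalization turned Mx2 to -0.00014. When a library was left out, Oasl1 ranged from -0.29 to 0.037, Mx2 from -0.051 to 0.089 and Tap1 from -0.048 to 0.11. The causes of these shifts were not tested. The labels do not say whether the replicate numbers pair mice, and deviations of same-numbered livers correlated between -0.19 and -0.006. Blocking on that number, 6 members, 3 other pathway genes and 700 genes passed. With 4 mice per group, a difference near the spread between livers can be missed, and how often was not computed.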

Other observations

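Further genes of the longer list, named here after their values were seen, kept the groups apart without passing the test. Counting those that passed, 19 of the 104 genes of that list (18.3%) were apart and lower, against 6.62% of all tested genes. Trafd1 came nearest to the threshold (-0.30, adjusted p = 0.05001), and Phf11b gave -0.56 (adjusted p = 0.23). B2m, the light chain of MHC class I, was at 16829, 19281, 18377 and 18983 in Con-Veh and at 14651, 16091, 14539 and 12975 in Con-DHT (log2FC -0.34, SE 0.097, adjusted p = 0.066). Psmb10, the remaining inducible subunit of the immunoproteasome, gave -0.51 (adjusted p = 0.062), and Psme2, the partner of Psme1, gave -0.22 (adjusted p = 0.060). Of their neighbours in the same route, Tap1 and Psmb9 gave 0.016 and -0.06. Psmb8 gave -0.37, Tapbp -0.31, Tapbpl -0.17 and Tap2 -0.15, also without passing. Ifi204, Slfn2, Slfn9 and Phf11d, induced genes that are prominent in macrophages or lymphocytes, gave log2FC values between -0.80 and -0.55 with adjusted p-values between 0.061 and 0.083. Tmem173, which encodes the adaptor STING of cytosolic DNA sensing, was at 35.2, 34.7, 37.9 and 40.9 in Con-Veh and at 17.7, 29, 25.5 and 12 in Con-DHT (-0.86, SE 0.272, adjusted p = 0.088). These genes were not tested as a group.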
